A study of Mus musculus with 4 samples.

Results

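Base excision repair and nucleotide excision repair remove damaged bases and damaged stretches of a single DNA strand, and 39 genes that carry out their core steps were followed here in growing mouse oocytes with and without γ-irradiation. The genes were listed by their role in these pathways and matched by NCBI gene ID. The rule holds no measured value, but earlier results of these data were known when the list was made. All 39 were among the 17374 genes listed. They comprise 11 DNA glycosylases, 2 AP endonucleases, 8 genes of break sensing, gap filling and ligation, 5 of damage recognition across the genome, 3 of transcription-coupled recognition, 6 subunits of the transcription and repair factor TFIIH, and 4 of damage verification and incision.

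In base excision repair, a glycosylase cuts a damaged base from its sugar, an AP endonuclease opens the strand at the empty site, a polymerase fills the gap and a ligase seals it. In nucleotide excision repair, a bulky lesion is found either by scanning factors or by a stalled RNA polymerase, TFIIH unwinds the DNA around it, nucleases cut on both sides, and the gap is copied again. Ionizing radiation produces oxidized bases and single-strand breaks as well as double-strand breaks. An oocyte no longer divides mitotically, and it stores RNA and protein.

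Germinal vesicle (GV) stage oocytes, which are arrested in meiotic prophase, were taken from non-primed C57/Bl6/DBA2J F1 females on day 16 after birth. They were freed of cumulus cells and held in medium with milrinone, an inhibitor of meiotic resumption. The zona pellucida was removed when oocytes were processed for sequencing. At this age most of these oocytes are transcriptionally active, according to the authors. The 2 control libraries are of non-irradiated oocytes. The 2 irradiated libraries are of oocytes lysed 24 h after a single dose of 5 Gy from a cesium source. Each library is a pool of oocytes from 1 of 2 independent experiments, polyadenylated RNA was sequenced, and the question here is how repair genes stood 1 day after the dose. How long the control oocytes were cultured is not given in the sources used here, and they were not described as transferred to the medium used for irradiation, so that culture and irradiation cannot be told apart. In pooled oocytes, fewer oocytes containing an RNA and less of it per oocyte cannot be told apart either.

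The estimated read counts summed to between 33349466 and 37232818 per library. Irradiated library 2 stood apart from the rest. Across genes, log counts scaled for library size had a Pearson correlation of 0.993 between the 2 control libraries and of 0.984 between the 2 irradiated ones, and genes are not independent replicates. The repair genes showed the same gap, since 16 of the 37 that could be tested differed by more than 1.25-fold between the 2 irradiated libraries (45.9% of all genes tested did), against 2 of 37 between the 2 controls (18.6% of all genes tested). All 12 oocyte markers were listed, with a summed level of 47795 to 54039 TPM, a level corrected for transcript length and scaled to the same total in every library, lowest in irradiated library 2. Of 12 granulosa and cumulus cell markers, 8 were listed and 4 exceeded a mean of 1 TPM, and Amh, Foxl2, Amhr2 and Wt1 were not listed. The summed level of those markers was 16.9 and 19.1 TPM in the controls and 16.7 and 22.3 TPM in the irradiated libraries, and its part in the results was not tested.

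The repair genes were present at very unequal levels, and the same few genes led in all 4 libraries. Of the members, 4 exceeded a mean of 100 TPM, 15 lay between 10 and 100, 16 between 1 and 10, and 4 under 1. Their median of 9.96 TPM compares with 1.41 TPM over all genes listed, and 33 of 39 lay above that value. The 3 highest members held between 58.2% and 68.0% of the summed level of all 39 in each library.

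Polb, which encodes DNA polymerase beta, the gap-filling enzyme of base excision repair, had the highest level, at 430.1 and 411.8 TPM in the first and the second control library and 416.4 and 387.3 TPM in the first and the second irradiated library, the order used throughout. Cetn2, which encodes centrin 2, a centriole protein that also binds the damage sensor Xpc, stood at 286.2, 300.3, 265.8 and 281.6 TPM. Neil3, a glycosylase for oxidized bases that favours single-stranded DNA and also opens interstrand crosslinks, stood at 206.5, 219.4, 198.2 and 167.5 TPM. The ranges of these 3 genes over the libraries did not overlap. Gtf2h2, which encodes the p44 subunit of TFIIH, followed at 102.8, 102.8, 100.1 and 105.6 TPM. Apex1, the main AP endonuclease, stood at 68.9, 72.1, 73.2 and 87.3 TPM. The order of these 5 and of Ercc1, at 29.6, 34.9, 33.3 and 49.7 TPM, was the same in every library, but of the 38 pairs of neighbours in the order of all members, only 9 had ranges that did not overlap.

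At the other end, Tdg, a glycosylase for mismatched thymine and for oxidized 5-methylcytosine, was at 0.04, 0.07, 0.05 and 0.05 TPM, with estimated counts of 3.99, 5, 4 and 3. This gene is also hard to count. On the same strand, 22.6% of the 100-base windows of its transcripts occur in other annotated genes, mostly the processed pseudogene Tdg-ps. Neil1, a glycosylase for oxidized pyrimidines, was at 0.09, 0.15, 0.11 and 0.18 TPM, with counts of 5, 6, 4 and 7. Both genes were below the minimum for testing, and no fold is given for them. Ercc2, the XPD helicase subunit of TFIIH, was at 0.23, 0.22, 0.32 and 0.51 TPM. Ercc6, the CSB protein that recognises stalled RNA polymerase, was at 0.44, 0.58, 0.46 and 0.51 TPM. Ercc4, which encodes the XPF nuclease, was at 0.96, 0.86, 1.07 and 1.22 TPM.

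**Figure D1:**
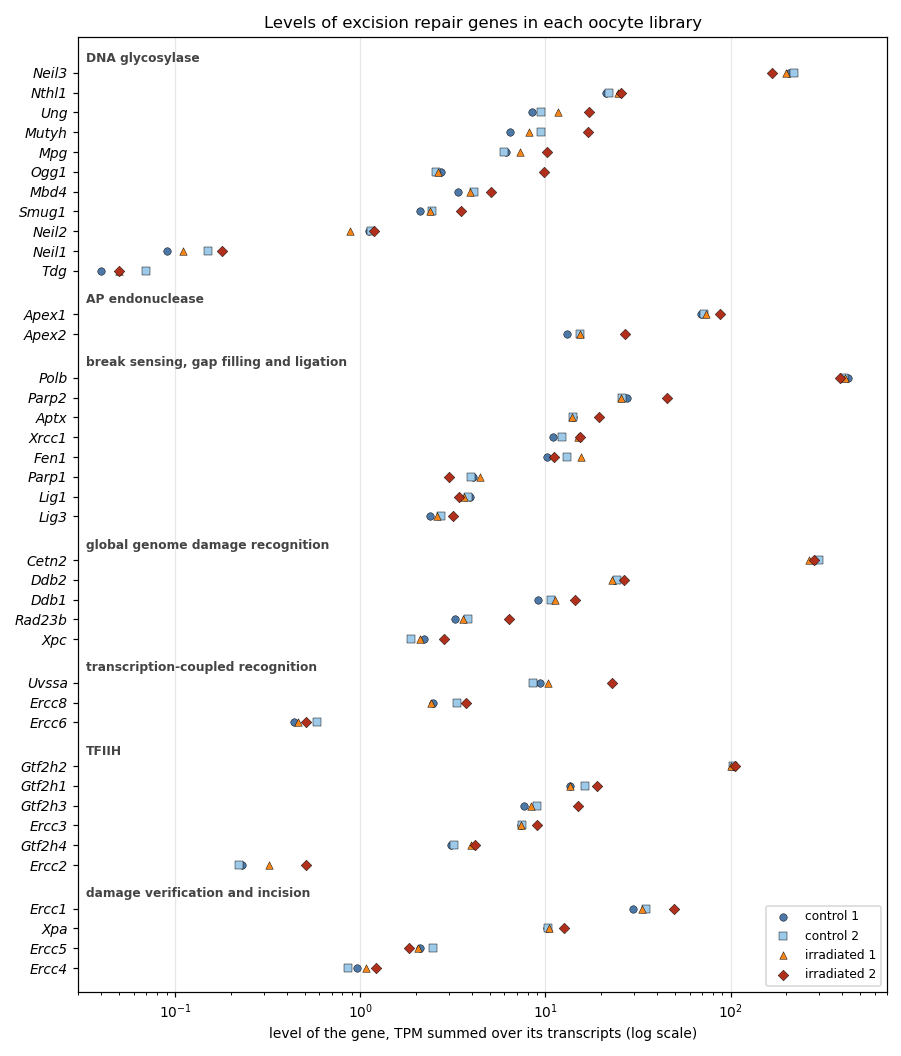
Level of each of the 39 excision repair genes, in TPM summed over the transcripts of the gene on a log axis, grouped by role, with 1 point for each of the 4 libraries. Polb, Cetn2, Neil3 and Gtf2h2 lie above 100 TPM in every library, Tdg and Neil1 lie below 1, and the spread between genes of the same role is wider than that between libraries.

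Some partners that act in the same complex differed widely in level, whereas others were close. Over the 4 libraries, Ddb2 was 1.84 to 2.62 times as high as Ddb1, and Rad23b 1.48 to 2.25 times as high as Xpc. Gtf2h5, a further TFIIH subunit, was 1.44 to 1.61 times as high as Gtf2h2. The Ercc1 and Ercc4 proteins form a single nuclease, and the level of Ercc1 was 30.9 to 40.8 times that of Ercc4 over the 4 libraries. The level of Cetn2 was 99.1 to 159.7 times that of Xpc, its partner in damage recognition. Within TFIIH, Gtf2h2 was 207.1 to 467.5 times as high as Ercc2 and 11.7 to 13.9 times as high as Ercc3, the XPB helicase. The 2 break sensors differed as well, with Parp2 at 5.75 to 14.98 times the level of Parp1, and the ratio was highest in irradiated library 2. Among glycosylases for oxidized bases, Neil3 was 140.7 to 225.2 times as high as Neil2. These are ratios of RNA levels in TPM, and protein was not measured.

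After irradiation, no repair gene changed past the limits set for a call, an adjusted p under 0.05 with a log2 fold change above 2 in size. With edgeR's quasi-likelihood test on gene totals, 0 of 37 members were called against 1 of all 12569 genes tested (0.00796%), and 0 members were called by DESeq2, by edgeR's exact test and by limma-voom. The adjusted p of the members ran from 0.708 to 0.987, and the 10 members with the smallest p, Ung, Uvssa, Ogg1, Ercc5, Ercc2, Mpg, Apex2, Neil2, Cetn2 and Neil3, all had the value of 0.708. At an unadjusted p under 0.05, 2 members were higher, Ung and Uvssa, where 4.63% of all genes were, and 0 were lower, where 1.29% of all genes were. The share of members that were higher, 5.41%, is near that background. The median log2 fold change, irradiated minus control, was 0.025 over the 37 members and 0.010 over all genes, and 34 of 37 members lay within 0.5 of 0. The sign of the fitted value changed under at least 1 alternative scaling, test or choice of libraries for 20 of the 37, all of them at 0.28 or less in size, so the counts of higher and lower members given for each role are of fitted values in a single fit. The standard errors ran from 0.13 to 0.44, so that changes of that order were not detectable in 2 libraries against 2.

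Both irradiated libraries lay above both controls for 6 members, Ung, Mpg, Apex2, Ddb1, Ercc2 and Uvssa, a pattern that 22.1% of all genes tested showed. They lay below both controls for 7 members, Neil2, Neil3, Lig1, Ddb2, Ercc5, Cetn2 and Gtf2h2, against 19.8% of all genes. On the TPM scale, where the median of all genes is shifted upward, Neil2, Ddb2 and Gtf2h2 were no longer below both controls, while the 6 members above remained above and Nthl1, Apex1, Xrcc1, Xpa, Ercc4 and Gtf2h4 joined them. The median log2 fold change on the log2(TPM + 1) scale was 0.18 over all genes and 0.19 over the members. The share of all genes with these patterns was not counted in TPM, so the longer list has no background to be set against. Irradiated library 2 was the highest of the 4 libraries for 13 members (38.2% of all genes) and the lowest for 15 (35.4%), whereas irradiated library 1 was the highest for 9 (19.6%) and the lowest for 3 (20.7%).

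**Figure D2:**
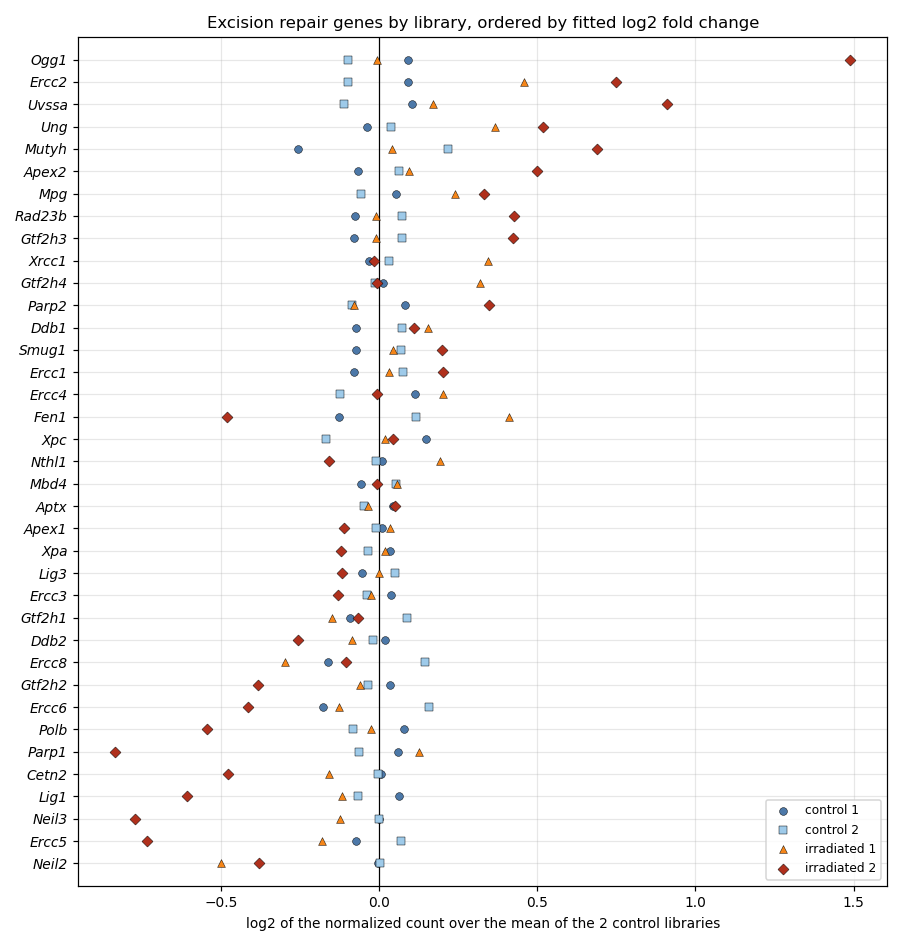
Normalized count of each of the 37 tested genes in each library, as log2 of its ratio to the mean of the 2 controls, with genes ordered by the fitted log2 fold change. Irradiated library 2 is at one end of the 4 points for most genes, and Ung is among the few genes for which both irradiated libraries lie clearly to one side of both controls.

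Among the 9 glycosylases tested, 7 had a higher fitted value after irradiation and 2 a lower one, with a median log2 fold change of 0.12. Over all genes tested, 6459 of 12569 had a higher fitted value, the background for this and the later counts by role. Of the 7, Nthl1 and Mbd4 turned lower without irradiated library 1, at -0.17 and -0.017. Ung, the main enzyme that removes uracil from DNA, had the smallest p of all members. Its normalized counts, scaled by edgeR's TMM factors, were 409.9, 431.6, 542.4 and 602.7, a mean of 420.8 ± 15.3 in controls and 572.6 ± 42.6 in irradiated oocytes (SD, n = 2 each). Both irradiated libraries lay above both controls. The log2 fold change was 0.44 with a standard error of 0.14, an unadjusted p of 0.0149 and an adjusted p of 0.708 (edgeR quasi-likelihood test). The difference was 0.37 with irradiated library 1 alone and 0.51 with irradiated library 2 alone, so that it did not rest on the library that stood apart. The unadjusted p was no longer under 0.05 without either control library, at log2 fold changes of 0.40 and 0.48, or with DESeq2.

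The Ung gene lies on chromosome 5 (GRCm38, chr5:114130366-114139321, plus strand) and has 2 alternative first exons, which give the protein different beginnings and send it to different places in the cell. The coding starts of both transcripts are shown because the reads of Ung divided between them. Capitals mark the bases found in that transcript alone, from the start codon on, and lower case the first 15 of the 796 coding bases that both share, read 5′ to 3′ from GENCODE transcripts on this build.

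Ung NM_001040691.1, first exon chr5:114130386-114130625, nuclear form: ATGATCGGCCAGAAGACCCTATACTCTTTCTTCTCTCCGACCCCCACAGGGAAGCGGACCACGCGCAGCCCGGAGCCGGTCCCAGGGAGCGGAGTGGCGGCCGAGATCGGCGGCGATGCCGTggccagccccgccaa

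Ung NM_011677.2, first exon chr5:114130926-114131513, mitochondrial form: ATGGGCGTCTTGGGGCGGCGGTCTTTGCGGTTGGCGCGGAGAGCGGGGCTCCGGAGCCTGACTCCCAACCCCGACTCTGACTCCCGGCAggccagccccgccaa

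The stretch of its own was 122 bases in the nuclear form and 89 in the mitochondrial form, of 918 and 885 coding bases. The nuclear form NM_001040691.1 held 59.6%, 46.3%, 52.4% and 51.4% of the level of Ung in TPM, and the mitochondrial form NM_011677.2 held 40.4%, 53.2%, 47.3% and 48.3%. The shares differed more between the 2 controls than between the 2 irradiated libraries, and the groups overlapped. The log2 fold change of the nuclear form was 0.44 with a standard error of 0.20, and that of the mitochondrial form 0.49 with a standard error of 0.25, with an adjusted p of 1 for each (edgeR). In the test of isoform usage, Ung had an adjusted p of 1 (diffSpliceDGE of edgeR).

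Ogg1, which removes 8-oxoguanine, the commonest oxidized base, had the largest fitted difference of all members. Its normalized counts were 106.3, 93.1, 99.3 and 280.1, so that irradiated library 1 lay between the 2 controls and irradiated library 2 stood 2.82-fold above it. Its log2 fold change was 0.94 with a standard error of 0.44. With irradiated library 1 alone it was 0.00013, and with irradiated library 2 alone 1.48. Camk1, which overlaps 10.6% of the exon bases of Ogg1 from the opposite strand, was also highest in irradiated library 2, at 36.6, 54.7, 52.2 and 85.1 normalized counts. Whether the libraries keep the strand is not given in the sources used here.

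Mutyh, which removes adenine paired with 8-oxoguanine, followed Ogg1 in that irradiated library 2 was the highest of the 4. Its normalized counts were 260.2, 361.5, 319.8 and 500.7, and its log2 fold change was 0.04 with irradiated library 1 alone and 0.68 with irradiated library 2 alone. Mpg, which removes alkylated purines, was at 265.7, 245.9, 302.0 and 321.9 normalized counts. Both irradiated libraries were above both controls, and the log2 fold change of 0.29 had a standard error of 0.15. Nprl3 overlaps 35.7% of the exon bases of Mpg from the opposite strand and was at 55.8, 67.0, 69.7 and 82.8 normalized counts.

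The lower values among the glycosylases tested were those of Neil3 and Neil2. Neil3 was at 11924, 11928, 10940 and 6993 normalized counts, nearly equal in the controls and lowest in irradiated library 2. Its log2 fold change was -0.41 with a standard error of 0.24, -0.12 with irradiated library 1 alone and -0.78 with irradiated library 2 alone. Neil2, which acts on oxidized bases in bubbles and single strands, was at 61.2, 61.5, 43.4 and 47.2 normalized counts. Both irradiated libraries were below both controls by a like amount, and the log2 fold change of -0.43 had a standard error of 0.24. It was -0.084 with known transcripts only and -0.067 on the log2(TPM + 1) scale. The known transcript NM_201610.2 had estimated counts of 26.8, 27.2, 26.8 and 29.2, and the predicted XM_011245108.3 of 28.7, 26.9, 10.8 and 13.3. The remaining glycosylases tested, Nthl1, Smug1 and Mbd4, had log2 fold changes of 0.03, 0.12 and 0.02, and their groups overlapped.

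Of the AP endonucleases, Apex1 was at 2155, 2130, 2197 and 1986 normalized counts, with a log2 fold change of -0.04 and a standard error of 0.13. The groups overlapped, and the sign of this value depended on the scaling, at 0.12 with library size alone and 0.18 on the log2(TPM + 1) scale. Pip4p1 lies opposite Apex1 over 61.7% of its exon bases and was at 285.8, 276.3, 329.3 and 429.6 normalized counts. Apex2, a minor AP endonuclease that trims blocked 3′ ends, was at 634.8, 693.9, 709.5 and 939.8 normalized counts. Irradiated library 1 was just above the controls and irradiated library 2 well above them. The log2 fold change was 0.31 with a standard error of 0.17, 0.10 with irradiated library 1 alone and 0.49 with irradiated library 2 alone.

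The 8 genes of break sensing, gap filling and ligation had a median log2 fold change of -0.02, with 4 higher and 4 lower. Polb was at 28755, 25757, 26792 and 18703 normalized counts. Irradiated library 1 lay between the controls and irradiated library 2 below them, and the log2 fold change was -0.26 with a standard error of 0.25 (adjusted p = 0.754, edgeR). Parp1, the main sensor of strand breaks, was at 393.9, 361.5, 411.9 and 211.8 normalized counts, and Parp2 was at 1255, 1118, 1124 and 1510. In irradiated library 2 the 2 sensors thus stood on opposite sides of the other libraries, Parp1 lowest and Parp2 highest.

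Fen1, which removes the displaced flap in long-patch repair, took opposite positions in the 2 irradiated libraries. It was at 587.8, 696.1, 853.5 and 460.4 normalized counts, highest in irradiated library 1 and lowest in irradiated library 2. Its log2 fold change was 0.03 with a standard error of 0.28, 0.41 with irradiated library 1 alone (adjusted p = 0.0318, edgeR) and -0.49 with irradiated library 2 alone (adjusted p = 0.000226, edgeR). A long antisense gene, Gm10143, covers 78.8% of its exon bases, so that its counts are uncertain. Xrcc1, the scaffold that holds Polb and Lig3 at a break, was at 698.1, 728.5, 906.4 and 705.7 normalized counts, and irradiated library 1 alone stood apart.

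Lig1, the ligase of replication and long-patch repair, was at 318.4, 290.6, 280.6 and 199.8 normalized counts, with both irradiated libraries below both controls. Lig3, the partner ligase of Xrcc1, was at 384.8, 413.7, 399.0 and 368.5, with a log2 fold change of -0.06 and a standard error of 0.14, which was 0.10 with library size alone. Rffl lies opposite 25.1% of the exon bases of Lig3 and had more reads than Lig3, at 1092, 1207, 1158 and 1261 normalized counts. Aptx, which repairs abortive ligation ends, had a log2 fold change of 0.0077, and its groups overlapped.

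Damage recognition across the genome held 5 members, 3 of them higher and 2 lower. Cetn2 was at 7979, 7928, 7128 and 5717 normalized counts, with both irradiated libraries below both controls. The fitted log2 fold change of Cetn2 was -0.31 with a standard error of 0.18, -0.16 with irradiated library 1 alone and -0.49 with irradiated library 2 alone. Ddb1 and Ddb2 together bind ultraviolet photoproducts. Ddb1 was at 1023, 1132, 1198 and 1163 normalized counts, just above the controls in both irradiated libraries, with a log2 fold change of 0.13 and a standard error of 0.13. Ddb2 was at 960.3, 933.9, 892.1 and 792.8, below the controls in both irradiated libraries. Its log2 fold change was -0.17 with a standard error of 0.13. Acp2 lies opposite 23.8% of the exon bases of Ddb2, at 23.3, 21.2, 27.4 and 26.2 normalized counts. Xpc was at 212.3, 170.5, 193.8 and 197.2, with both irradiated libraries between the controls. Rad23b, a partner of Xpc, had a log2 fold change of 0.23 and was highest in irradiated library 2.

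In transcription-coupled recognition, Uvssa, which brings TFIIH to a stalled polymerase, was the other member at an unadjusted p under 0.05. It was at 1867, 1610, 1954 and 3269 normalized counts. Irradiated library 1 was close to control library 1, and irradiated library 2 was 1.67-fold above irradiated library 1. Its log2 fold change was 0.59 with a standard error of 0.24 and an unadjusted p of 0.0476 (edgeR quasi-likelihood test), 0.17 with irradiated library 1 alone and 0.90 with irradiated library 2 alone. Its unadjusted p was no longer under 0.05 without control library 2, without irradiated library 2, with DESeq2's size factors in edgeR, with limma-voom, on the log2(TPM + 1) scale or with known transcripts only.

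Ercc6 was at 97.7, 123.5, 101.2 and 82.9 normalized counts and Ercc8, the CSA protein, at 132.7, 164.0, 120.7 and 138.0, and both overlapped between groups. The log2 fold change of Ercc6 was -0.26 with a standard error of 0.23, and -2.29 when its predicted transcripts were left out, since the one known transcript, NM_001081221.2, had estimated counts of 30.8, 24.1, 0.01 and 13.3.

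Of the 6 TFIIH members, 3 were higher and 3 lower. Ercc2 was at 22.2, 19.4, 28.5 and 35.0 normalized counts, above the controls in both irradiated libraries. Its log2 fold change was 0.61 with a standard error of 0.32, 0.45 with irradiated library 1 alone and 0.73 with irradiated library 2 alone. These are some of the lowest counts among the members, and the antisense gene Gm26852 and the gene Klc3 lie opposite 24.6% and 17.8% of the exon bases of Ercc2. Gtf2h2 was at 4202, 4001, 3931 and 3146 normalized counts, with a log2 fold change of -0.21 and a standard error of 0.16, and of 0.00032 on the log2(TPM + 1) scale. Gtf2h1, Gtf2h3, Gtf2h4 and Ercc3 had log2 fold changes of -0.11, 0.23, 0.16 and -0.08, and their groups overlapped.

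Among the incision genes, Ercc5, the XPG nuclease that cuts on the 3′ side of a lesion, was at 224.5, 248.2, 208.6 and 142.3 normalized counts. Both irradiated libraries were below both controls, irradiated library 2 by more. Ercc5 had a log2 fold change of -0.43 with a standard error of 0.22, -0.18 with irradiated library 1 alone and -0.74 with irradiated library 2 alone. Ercc4, the nuclease for the 5′ side, was at 174.4, 147.8, 185.3 and 160.4, and Ercc1 and Xpa, which verifies the lesion, had log2 fold changes of 0.12 and -0.05. The groups overlapped for these 3 genes.

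Each irradiated library was also set against the 2 controls on its own, and the spread is then taken from the controls, with the lone library assumed to vary like them. With irradiated library 1 alone, 3 of 37 members had an unadjusted p under 0.05, Ung, Xrcc1 and Fen1 (10% of all genes did), and 1, Fen1, an adjusted p under 0.05 (0.791% of all genes). With irradiated library 2 alone, 9 members were higher and 9 lower at an unadjusted p under 0.05 (20.2% and 21.3% of all genes), and 17 members had an adjusted p under 0.05 (34.3% of all genes). The log2 fold changes of the members ran from -0.50 to 0.45 in irradiated library 1 and from -0.85 to 1.48 in irradiated library 2. The 2 comparisons share their controls. No member was called past both limits in either.

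**Figure D3:**
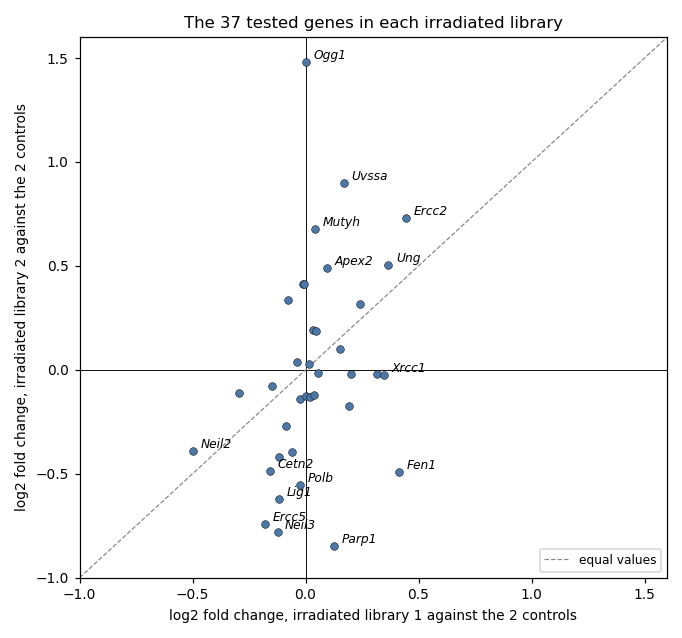
Log2 fold change of each of the 37 tested genes with irradiated library 1 alone (horizontal) and irradiated library 2 alone (vertical), each against the same 2 controls. Ogg1 and Uvssa lie far above the dashed line of equal values, at 1.48 and 0.90 in library 2 against 0.00013 and 0.17 in library 1, Fen1 has opposite signs, and Ung and Neil2 lie near the line.

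The 39 genes were listed with 115 transcripts, 62 known and 53 predicted by computation, and 29 genes had more than 1. Of the 78 transcripts with enough reads for a test, 0 were called by edgeR (0 of all 26645 tested, 0%), and 1 had an unadjusted p under 0.05, where 4.9% of all transcripts did. DESeq2, run on every listed transcript, called 0 of the 115 (0.541% of all). The transcript below 0.05 was the known Polb transcript NM_011130.2, at estimated counts of 976.5, 924.1, 742.6 and 768.6 before scaling. Its log2 fold change was -0.45 with a standard error of 0.13 (unadjusted p of 0.0318 and adjusted p of 0.842, edgeR), and both irradiated libraries lay below both controls. It held only 6.77% to 8.82% of the level of Polb. The predicted transcript XM_030243354.1 held 90.4% to 92.5%, with a log2 fold change of -0.24 and a standard error of 0.23, so that the place of Polb at the head of the order rests on a transcript that the annotation predicts. Its reads per TPM were 2.43-fold those of the known one, as a longer transcript has.

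Polb, Ercc6 and Tdg were the genes of several transcripts in which a predicted one had the highest mean level, and in 9 of the 29 genes 1 transcript held over 90% of the level in every library. Others were shared. Ddb2 divided between NM_028119.5, at 48.6%, 51.4%, 51.2% and 55.6% of its level, and NM_001362705.1 with the rest. In Gtf2h2, NM_022011.4 held 61.3%, 69.9%, 63.7% and 65.9%. In Uvssa, NM_027674.1 held 81.4%, 55.3%, 72.7% and 87.0%, and the 2 controls were further apart than the 2 irradiated libraries.

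Shares of near-identical transcripts moved between libraries of the same condition. Lig3 NM_010716.3 had estimated counts of 358.9, 34.3, 53.6 and 226.6, while the total of Lig3 stayed between 376.8 and 429.8, and NM_001291247.1 was at 0 in control library 1 and at 193.4 in control library 2. Lig3 NM_001291245.1, at 15.8, 22.9, 38.9 and 144.9, had a log2 fold change of 2.03 with a standard error of 0.75 (adjusted p of 1, edgeR). In all, 39 of the 115 transcripts of the members were at 0 in at least 1 library and above 3 counts in another, of the same or the other condition. The share of all transcripts that did so was not counted. Of the other transcripts with the smallest p, Ddb1 NM_015735.2 had a log2 fold change of 0.26 with a standard error of 0.11, Neil2 XM_011245108.3 of -1.34 with a standard error of 0.62, and Fen1 XM_006526664.3, at estimated counts of 0, 4.43, 23.5 and 29.2, of 3.49 with a standard error of 1.73. The test of isoform usage covered 21 members, and 0 passed at an adjusted p (0.253% of all genes tested) or at an unadjusted p under 0.05 (6.12%). Every one of the 21 had an adjusted p of 1 (diffSpliceDGE of edgeR), Ddb1 ranking first by its unadjusted value. In simulated libraries this test found 24% of genes given a change of 3 log2 units in 1 transcript. The changed transcript was the first tested one of each gene, whatever its count. That rate is thus not specific to the members, and changes of their isoforms could be missed.

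**Figure D4:**
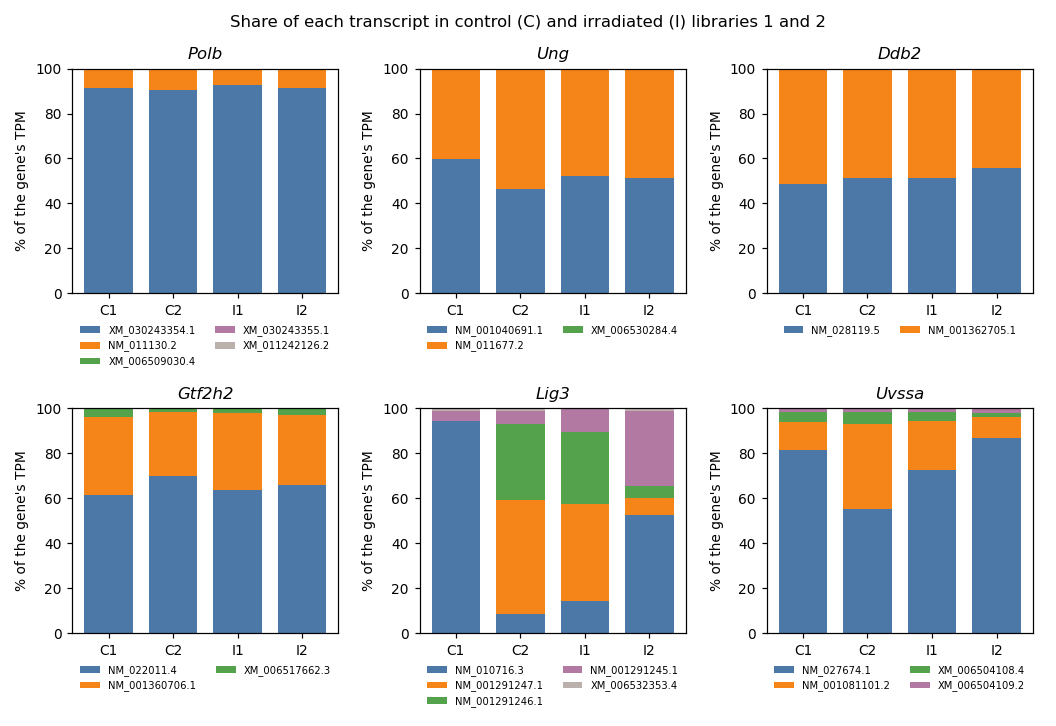
Share of each transcript in the summed TPM of its gene, in percent, for 6 genes in control (C) and irradiated (I) libraries 1 and 2. One predicted transcript holds over 90% of Polb in every library, Ung and Ddb2 divide about evenly between 2 known transcripts, and the shares of Lig3 differ more between the 2 controls than between conditions.

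Another 36 genes of the same pathways, covering further base excision and nucleotide excision factors and the resynthesis of DNA, were read from the same fit. Of these, 35 were tested, 0 were called and 0 had an unadjusted p under 0.05 (edgeR), where 4.63% of all genes were higher and 1.29% lower at that p. Their median log2 fold change was -0.07, with 14 higher and 21 lower. Both irradiated libraries were above both controls for 7 (22.1% of all genes tested) and below both for 12 (19.8% of all genes tested). The smallest p belonged to Pole3, a small subunit of DNA polymerase epsilon, at 943.0, 878.5, 805.8 and 571.9 normalized counts and a log2 fold change of -0.40 with a standard error of 0.18. Usp7, a deubiquitinase that acts with Uvssa, was at 4040, 4153, 3683 and 2429, with a log2 fold change of -0.42. Cul4b, the scaffold of a ubiquitin ligase that holds Ddb1, was at 3469, 3677, 3069 and 2870, with a log2 fold change of -0.27. Poll, a gap-filling polymerase related to Polb, and Rfc5, a subunit of the clamp loader, had log2 fold changes of 0.37 and 0.24. Uvssa and Usp7, which act together, thus had fitted values of opposite sign, and irradiated library 2 was farthest from the controls in both.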

How the data were processed

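Paired-end reads were trimmed for quality and aligned to GRCm38 by the authors, who deposited an estimated count and a TPM value for each RefSeq transcript. The submitters' processing notes name HISAT2, Bowtie2 and RSEM, with no role or version. Strandedness is not given in the sources used here. A further 10 columns (FPKM and averages) were not used.

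Estimated counts (45505 transcripts) were summed per gene ID, rounded and tested by the quasi-likelihood method of edgeR 4.0.16 (R 4.3.3). Features under filterByExpr's limit at a minimum of 10 were left out, TMM factors were 0.923, 0.975, 0.937 and 1.19, and p-values were adjusted by Benjamini-Hochberg over all features tested. Isoform usage used diffSpliceDGE with Simes' method. TPM was summed per gene and described without a test. Positions are from RefSeq GRCm38.p6 and sequences and overlaps from GENCODE M21. Alternatives used DESeq2 1.42.0, limma 3.58.1, edgeR's exact test, other scalings, no filter, known transcripts only, log2(TPM + 1) with a pseudocount of 1, and each library left out.

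The members and lists were chosen with earlier results of these data known. Genes given in full are the 10 members with the smallest p of the gene total, the 5 highest and 5 lowest by mean TPM, those holding the 6 smallest p among member transcripts, and the 5 other pathway genes with the smallest p. Other members were described after their values were seen. The libraries come from 2 experiments, but what a replicate number pairs is not given, and p-values measure only the spread between these libraries. On simulated data with 200 features changed by 3 log2 units, edgeR recovered 100% of 12569 gene totals' changes with 0 false calls and 69% of those among 26645 transcripts with 0 false calls; DESeq2 recovered 79% of the latter with 65 false calls. The isoform test recovered 24% of changes among 5663 genes, each planted upward in the first tested transcript whatever its count. For gene totals and transcripts, changes were planted only in features above a minimum mean count. The simulated libraries varied by the fitted dispersion alone, so none stood apart as irradiated library 2 did. Every planted change was larger than the fitted gene-total change of any member, so these rates do not measure power for changes of that size. Python 3.11.15 with matplotlib 3.10.9 drew the figures.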

Additional observations from a re-analysis of the deposited data

How the results depend on the processing

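No member was called past both limits under any alternative run on gene totals. The fitted log2 fold changes of the members ran from -0.435 to 0.94, so the limit of 2 in size left little room for a call. The sign of the log2 fold change held in every alternative run for 17 of the 37 members, among them the 10 with the smallest p. Even so, Ogg1 was at 0.00013 without irradiated library 2, and Neil2 was at -0.084 with known transcripts only. Ercc2 was too low to be run on the TPM scale. The sign changed for the other 20, for 15 of them when a library was left out. These included Parp1 (0.12 without irradiated library 2), Parp2 (-0.079 without irradiated library 2) and Xrcc1 (-0.027 without irradiated library 1). Among the 18 members given in full, 5 changed sign: Gtf2h2 (0.00032 on the TPM scale), Apex1 (0.12 with library size alone, 0.18 on the TPM scale, -0.12 to 0.037 with a library left out), Ercc4 (-0.021 to 0.22 with a library left out, negative without control library 2 at -0.019 and without irradiated library 1), Lig3 (0.10 with library size alone, 0.12 on the TPM scale, -0.13 to 0.0018 with a library left out) and Fen1 (-0.037 with limma-voom, -0.025 with the replicate block, -0.13 with known transcripts only, -0.49 to 0.41 with a library left out, negative without control library 1 at -0.089 and without irradiated library 1). Library size alone and TPM moved the median log2 fold change of all genes from 0.010 to 0.17 and 0.18, and that of the members from 0.025 to 0.17 and 0.19.

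Over all genes, 1 was called, against 0 with library size alone, limma-voom, TPM or known transcripts only, 3 with no filter, 4 with DESeq2, 10 with the exact test, and 16 to 84 with a library left out, the most without irradiated library 1. Members higher at an unadjusted p under 0.05 numbered 2, against 1 with DESeq2's size factors in edgeR, limma-voom, TPM or known transcripts only, and 2 to 9 with a library left out. Members lower numbered 0, against 1 with known transcripts only (Polb, log2 fold change -0.46) and 0 to 9 with a library left out. Called transcripts numbered 0, against 246 with DESeq2 and 247 with the exact test, none of them of a member. Member transcripts at an unadjusted p under 0.05 numbered 1, against 0 with the exact test or library size alone and 1 to 11 with a library left out. Genes with changed isoform usage numbered 16, against 58 with the F test and 1 to 29 with a library left out, and members at an unadjusted p under 0.05 numbered 0, against 0 to 1. The causes of these differences were not tested.

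What the replicate numbers pair was not settled. The deviations of same-numbered libraries from their condition means had a correlation of 0.0975. With 2 libraries per condition, the second pair repeats this value and crossed libraries give -0.0975, so it is 1 value. With the replicate block, 7 genes and 0 members were called. At an unadjusted p under 0.05 (edgeR), 4 of 37 members were higher (Ung, Uvssa, Ogg1 and Mutyh) and 0 were lower. Over all 12569 genes, 1299 were under 0.05 in either direction with the block, against 744 without it. With the block, 0 member transcripts were below 0.05, and 3 genes had changed isoform usage. The lowest counts, where depth limits precision most, were those of Tdg, Neil1 and Ercc2.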
